A study of Mus musculus with 2 samples.

Results

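The macrophage-type wells of the E11.5 mouse embryo were 66 single-cell wells among the cells sorted as VE-cadherin positive. They were chosen by a count in at least 3 of 9 macrophage genes (Csf1r, Cx3cr1, C1qa, C1qb, C1qc, Lyz2, Tyrobp, Fcer1g and Aif1) in wells with 500 or more detected genes. In the aorta-gonad-mesonephros region (AGM), the intra-embryonic site where blood stem cells arise, 37 of 287 positive wells met the rule, a share of 12.9% (9.24 to 17.3%, exact Clopper-Pearson 95% interval). The yolk sac is the membrane outside the embryo that makes its first blood cells, and 29 of its 357 positive wells met it, a share of 8.12% (5.51 to 11.46%). Before the limit of 500 genes there were 372 AGM and 388 yolk sac positive wells, so the limit left out more AGM wells. At any depth, 38 AGM and 29 yolk sac positive wells had 3 of the 9 genes. The E11.5 table holds 1576 wells and the whole series 2954.

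The cells came from wild-type C57Bl/6 embryos, were sorted by VE-cadherin, an adhesion protein of endothelial junctions, and lacked 7AAD, a dye that enters dead cells. All E11.5 cells shared 1 ICELL8 chip, on which cells stained with Hoechst are imaged so that wells with a single cell can be picked, and were sequenced on a NextSeq 500. Each sorted pool is thus 1 sample, with no replicate, and how many embryos entered a pool is not given in the sources used here. No test across samples was possible. The 95% intervals printed are exact and take in counting error alone, and because the wells were chosen from the same counts, every difference from the other positive wells is a description.

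Macrophages of the mid-gestation embryo come first from yolk sac progenitors and seed the tissues before blood stem cells do. They take up dying cells and debris through scavenger and mannose receptors, digest them in lysosomes, and move by rapid remodelling of actin. Their identity depends on the transcription factor PU.1, encoded by Spi1, which binds purine-rich ETS sites often found close to the start sites of myeloid genes.

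The promoters of 5 genes outside the rule are shown as examples. These genes stood above the other positive wells in both tissues, as described below, but are not the 5 with the largest ratios. Each runs from 250 bases before to 50 bases after the RefSeq start (GRCm38.p6), 5′ to 3′ on the strand of the gene. The positions are Fcrls chr3:87263475-87263774 (minus strand), Pf4 chr5:90772185-90772484 (plus strand), Ctss chr3:95526536-95526835 (plus strand), Fcgr3 chr1:171059354-171059653 (minus strand), Mrc1 chr2:14229164-14229463 (plus strand). Capitals mark GAGGAAG or GGAAGT, the core letters of PU.1-type ETS sites, or their reverse complements CTTCCTC and ACTTCC. The motifs share letters, so that 1 run of capitals can hold both.
Fcrls: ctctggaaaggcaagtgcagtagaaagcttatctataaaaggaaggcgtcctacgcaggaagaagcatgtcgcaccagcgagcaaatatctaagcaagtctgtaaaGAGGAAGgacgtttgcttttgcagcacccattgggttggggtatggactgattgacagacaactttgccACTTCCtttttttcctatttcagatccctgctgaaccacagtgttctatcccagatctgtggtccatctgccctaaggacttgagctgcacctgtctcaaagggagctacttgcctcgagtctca
Pf4: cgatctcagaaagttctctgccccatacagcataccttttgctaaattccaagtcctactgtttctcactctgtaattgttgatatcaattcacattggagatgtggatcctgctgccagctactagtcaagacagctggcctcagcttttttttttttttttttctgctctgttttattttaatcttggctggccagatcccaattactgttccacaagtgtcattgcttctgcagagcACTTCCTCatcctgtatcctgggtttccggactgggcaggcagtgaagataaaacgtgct
Ctss: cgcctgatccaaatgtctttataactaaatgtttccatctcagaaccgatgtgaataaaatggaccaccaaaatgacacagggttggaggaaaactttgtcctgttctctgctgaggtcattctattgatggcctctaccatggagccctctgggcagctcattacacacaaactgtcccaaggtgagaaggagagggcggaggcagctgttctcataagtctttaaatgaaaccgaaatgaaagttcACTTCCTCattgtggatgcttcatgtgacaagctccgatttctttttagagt
Fcgr3: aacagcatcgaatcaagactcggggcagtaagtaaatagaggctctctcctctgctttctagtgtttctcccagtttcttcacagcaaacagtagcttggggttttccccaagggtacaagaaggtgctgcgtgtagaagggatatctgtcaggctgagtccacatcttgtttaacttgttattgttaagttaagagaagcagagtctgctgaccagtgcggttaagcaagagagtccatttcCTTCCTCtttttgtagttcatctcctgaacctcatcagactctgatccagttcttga
Mrc1: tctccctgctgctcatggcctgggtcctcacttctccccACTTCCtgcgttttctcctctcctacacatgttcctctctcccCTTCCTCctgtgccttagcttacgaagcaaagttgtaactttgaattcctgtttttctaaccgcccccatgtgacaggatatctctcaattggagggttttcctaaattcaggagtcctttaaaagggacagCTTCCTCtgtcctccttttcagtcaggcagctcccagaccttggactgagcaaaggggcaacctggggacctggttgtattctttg
GAGGAAG was found on either strand in the promoters of 7 of the 21 genes named below as higher for which RefSeq gave a promoter, against 15.4% of 27025 genes. GGAAGT was found in 10 of the 21, against 26.5% of all genes. The 5 promoters shown are all among the 7 with GAGGAAG, so they do not stand for the named genes. A match of letters is a description and not a site.

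The label was checked against macrophage markers that the rule did not use, 14 of them in the table (Mrc1, Spi1, Fcgr3, Ctss and others). With every well thinned to 1500 counts, at least 3 of the 14 were present in 17 of 37 AGM macrophage-type wells (45.9%) against 2 of 243 other AGM positive wells (0.823%). Yolk sac shares were 8 of 29 macrophage-type wells (27.6%) against 5 of 327 other wells (1.53%). Without the neutrophil-gene wells described next, the AGM share was 17 of 32 (53.1%). At this depth most yolk sac macrophage-type wells, and most of the 37 AGM ones, thus did not reach 3 of these markers. Unthinned, 30 of 37 AGM wells (81.1%) and 22 of 29 yolk sac wells (75.9%) did. The other positive wells then reached 3 in 6 of 250 (2.40%) in AGM and 12 of 328 (3.66%) in the yolk sac. After thinning to 1500 counts, 28 of 37 AGM and 14 of 29 yolk sac wells still met the rule itself.

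The markers went against the label most clearly in 5 of the 37 AGM wells, called neutrophil-gene wells here. These wells were defined after the data were seen, by at least 20 counts of 8 neutrophil and monocyte markers. They held 45 to 1106 counts of these markers, with a median of 487, and had met the rule mainly through Lyz2, Tyrobp and Fcer1g. Their counts were 0 for Cx3cr1, C1qb, C1qc, Pf4, Lyve1 and Fcrls, and Csf1r and Mrc1 were each seen once, in 1 and the same well. S100a8, a calcium-binding protein of neutrophils and monocytes, had 359, 658, 243, 0 and 234 counts in the 5 wells. The well without S100a8 and the last well held 32 and 46 counts of Mpo, the myeloperoxidase of early granules. In the other 32 AGM wells no well had more than 4 counts of the marker list, nor had any of the 29 yolk sac wells. Over summed wells the marker list stood at 15517 CPM in AGM macrophage-type wells against 763 CPM in other AGM wells, and at 67.5 against 92.3 CPM in the yolk sac. Another 2 positive wells, 1 of each tissue, held 329 and 26 counts of the list without meeting the rule. Some results that rest on the AGM wells are given with and without these 5. Where nothing is said, AGM counts and ratios against the other positive wells take in all 37 wells.

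**Figure D1:**
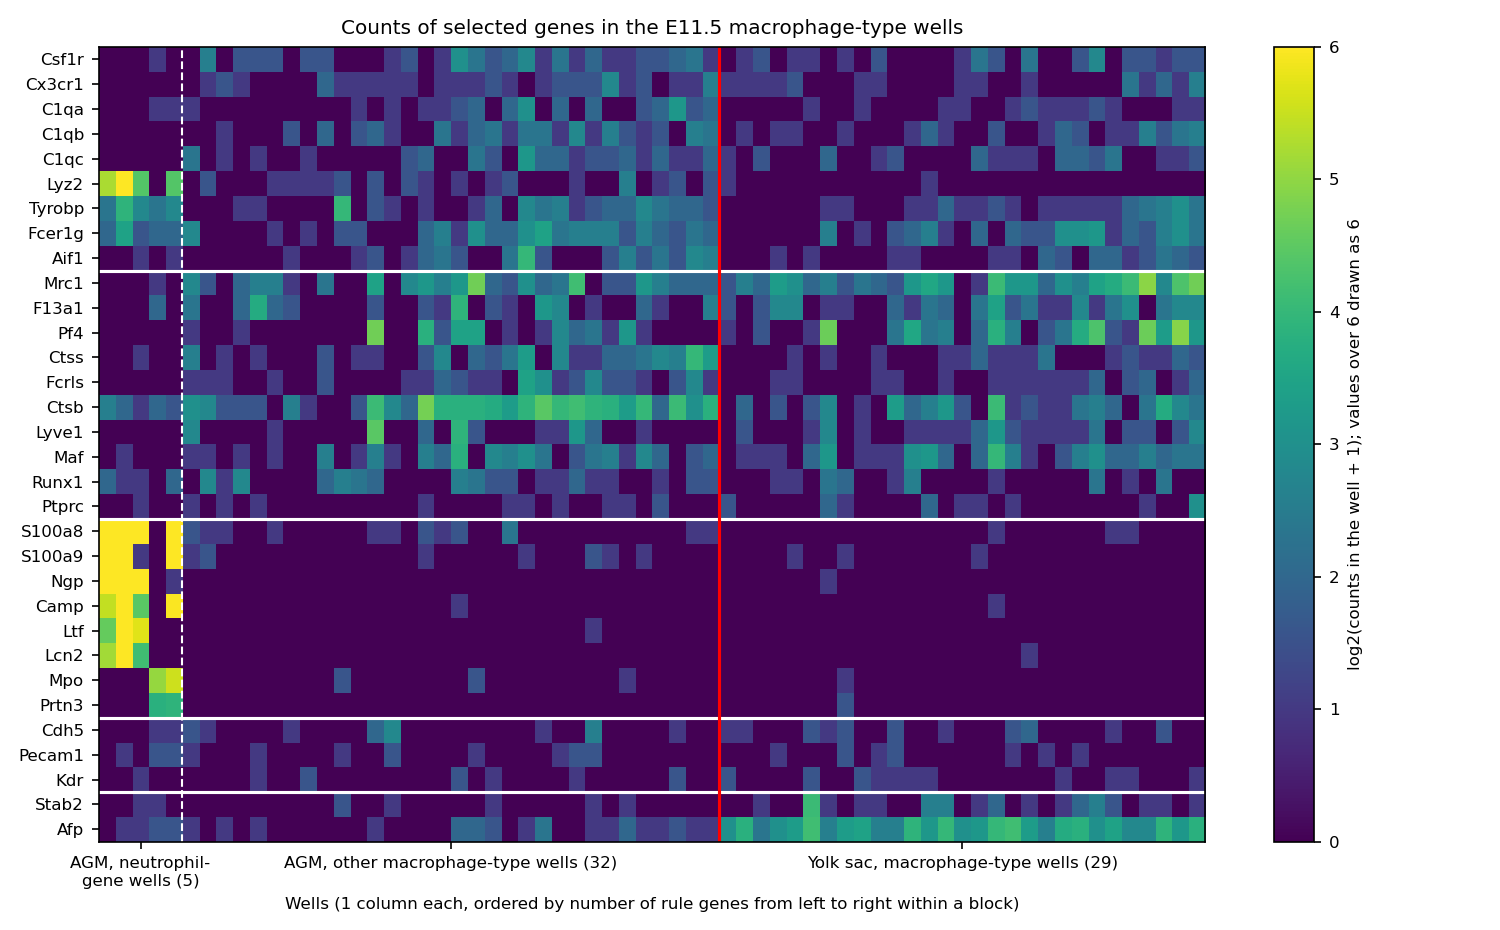
Counts of selected genes (rows) in each of the 66 macrophage-type wells (columns), as log2(counts + 1). The 5 neutrophil-gene wells at the left hold S100a8, Ngp, Ltf or Mpo and almost no C1q or Mrc1, while the other 32 AGM and 29 yolk sac wells hold at most 4 counts of the neutrophil and monocyte markers, and Afp is present in every yolk sac column.

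Macrophage-type wells held a median of 3689 counts and 1271 genes in AGM, against 2439 counts and 685.5 genes in the other positive wells. Yolk sac medians were 4290 counts and 1234 genes, against 2964 counts and 731 genes. Summed totals were 161884 against 688374 counts in AGM and 133254 against 1093995 counts in the yolk sac. Haemoglobin took a median of 14.4% of counts against 27.0% in AGM, and 18.7% against 35.5% in the yolk sac. Scrublet marked none of the 66 wells as doublets. Among the 66, 14 carry a barcode that also occurs on the E9.5 chip, where none of those wells met the rule. The rule found 1 of 338 AGM and 0 of 379 yolk sac VE-cadherin-negative wells at E11.5 (a limit of 3 of the 379 wells, a share of up to 0.792%), and 0 of 46 wells of embryonic stem cell RNA. At E9.5, on another chip, 0 of 299 AGM positive wells, which by the same limit allows a share of up to 1.00%, and 17 of 325 yolk sac positive wells (5.23%, 3.08 to 8.24%) met it, as did 0 of 354 AGM and 4 of 305 yolk sac negative wells (1.31%). Stage and chip cannot be told apart.

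With exactly 3 of the 9 genes, 9 AGM and 11 yolk sac wells lay just inside, and with exactly 2, 21 AGM and 30 yolk sac wells lay just outside. Mrc1 stood at 610 CPM, counts scaled to the total of the summed wells, in the AGM wells with 3 genes and 308 CPM in those with 2. Yolk sac values were 1052 CPM with 3 genes and 596 CPM with 2. F13a1 stood at 665 against 88.1 CPM in AGM and 491 against 180 in the yolk sac. Pf4 stood at 55.4 against 58.8 CPM in AGM, where it rests on 2 and 4 counts, and at 748 against 180 in the yolk sac.

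Outside the rule, the macrophage-type wells carried receptors, secreted factors, lysosomal enzymes and actin regulators at several times the level of the other positive wells of the same tissue, and less endothelial and red-cell RNA. Over both tissues, 332 of 4010 genes with at least 20 counts in each tissue were at least 2-fold higher in macrophage-type wells in both (8.28%), and 250 were at least 2-fold lower in both (6.23%). With totals that leave out haemoglobin and mitochondrial genes 148 were higher and 450 lower, and with TMM factors, which scale to the bulk of genes, 108 and 569. Without the neutrophil-gene wells the numbers were 334 of 3921 higher (8.52%) and 224 lower (5.71%). Ratios are of CPM over the summed wells. The median gene was 0.20 above the other wells in AGM and 0.23 in the yolk sac on the log2 scale. Without haemoglobin and mitochondrial genes these medians were -0.15 and -0.20, and with TMM factors -0.30 and -0.40. Every log2 ratio is to be read against these shifts, and list medians are given relative to the median gene.

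Among the surface receptors, Mrc1, the mannose receptor, had 0 to 25 counts per AGM macrophage-type well with a median of 3, against 0 to 8 with a median of 0 in other AGM wells. The log2 ratio was 2.49 (2.13 to 2.86) with all 37 wells and 2.85 without the 5 neutrophil-gene wells. Yolk sac macrophage-type wells had 0 to 30 counts with a median of 7, against 0 to 21 with a median of 1, a log2 ratio of 2.15 (1.92 to 2.38). Ranges overlapped in both tissues, but in wells thinned to 1500 counts Mrc1 was present in 26 of 37 AGM macrophage-type wells (70.3%) and 28 of 29 yolk sac ones (96.6%). It was present in 22.2% of other AGM wells and 41.3% of other yolk sac wells. The AGM and yolk sac negative wells, which are other sorted pools, had it in 2.92% and 7.92%. Fcrls, an Fc receptor-like protein known from mouse microglia, summed to 55 counts in 22 of 37 wells against 13 counts in 11 of 250 in AGM, and to 23 counts in 16 of 29 wells against 12 in 11 of 328 in the yolk sac. Its log2 ratios were 4.17 (3.28 to 5.17) and 3.98 (2.91 to 5.12). Fcgr3, a low-affinity receptor of immunoglobulin G, had log2 ratios of 2.98 in AGM and 3.24 in the yolk sac, and Sirpa, a receptor of the signal CD47, had 2.02 and 2.90. Ptprc, the CD45 of all white blood cells, was sparse, with 12 counts against 12 in AGM and 20 against 19 in the yolk sac, log2 ratios of 2.09 (0.81 to 3.37) and 3.11 (2.13 to 4.10). Adgre1, which encodes F4/80, summed to 18 against 15 counts and 9 against 6, with log2 ratios of 2.35 and 3.62. Timd4, a receptor for dying cells, gave 1 count in the AGM and 2 in the yolk sac macrophage-type wells, too few for a comparison. Cd163 is not analysed here.

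Pf4, the chemokine platelet factor 4, is made by embryonic macrophages as well as platelets. It had 0 to 25 counts per AGM macrophage-type well and was seen in 15 of 37, against 0 to 3 counts in 22 of 250 other wells. Yolk sac macrophage-type wells had 0 to 29 counts with a median of 3, and it was seen in 21 of 29, against 0 to 4 counts in 85 of 328. Log2 ratios were 3.72 (3.09 to 4.39) and 3.81 (3.46 to 4.17). Of the 8 megakaryocyte and platelet markers, 6 were at 0 in the AGM and 5 in the yolk sac macrophage-type wells, and both members with enough counts, Pf4 and the protein kinase C substrate Plek, were higher in both tissues. F13a1, the A subunit of clotting factor XIII, which cross-links fibrin, had 0 to 14 counts per AGM macrophage-type well, 73 in all, against 0 to 3 and 35 in all. Yolk sac macrophage-type wells had 0 to 10 counts, 85 in all, against 0 to 7 and 91 in all. Its log2 ratios were 3.15 (2.55 to 3.77) and 2.94 (2.50 to 3.38). Leaving out the neutrophil-gene wells, 26 of 32 AGM wells had Mrc1, among them 16 of the 17 with F13a1 and 14 of the 15 with Pf4. Of the yolk sac wells 28 of 29 had Mrc1, among them all 23 with F13a1 and all 21 with Pf4.

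Lysosomal genes were higher as a group. Of 14 measured lysosomal and cathepsin genes, 9 were at least 2-fold higher in both tissues (among them Ctsb, Ctsc, Ctss, Grn, Psap and Lgmn) and none lower, against 8.28% of all genes, and 5 with totals without haemoglobin and mitochondrial genes. The list's median log2 ratio lay 2.22 above that of all genes in AGM and 0.92 above it in the yolk sac. Ctss, the cysteine protease cathepsin S, had 0 to 15 counts per AGM macrophage-type well, 91 in all, against 0 to 3 and 13 in all. Yolk sac macrophage-type wells had 0 to 4 counts, 25 in all, against 0 to 2 and 18 in all. Its log2 ratios were 4.90 (4.05 to 5.86) and 3.51 (2.58 to 4.47). Ctsa, a carboxypeptidase of the lysosome, Grn, the lysosomal progranulin, and Laptm5, a lysosomal membrane protein of blood cells, had log2 ratios of 2.50, 2.17 and 3.40 in AGM and 2.11, 1.89 and 2.77 in the yolk sac. Genes that sort endosomes were among those named too. Dab2, a clathrin adaptor, had 0 to 25 counts with a median of 3 in AGM macrophage-type wells, against 0 to 7 with a median of 0, and 0 to 31 with a median of 5 in yolk sac ones, against 0 to 11 with a median of 1. The retromer-associated sorting nexins Snx6 and Snx2 had log2 ratios of 2.39 and 2.29 in AGM and 1.94 and 1.92 in the yolk sac, and Slc9a9, an endosomal sodium-proton exchanger, had 2.17 and 2.61.

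Genes of the actin cytoskeleton and of immune signalling were higher together. Of 10 measured actin and migration genes, 8 were at least 2-fold higher in both tissues (Cotl1, Arpc1b, Tmsb4x, Lcp1, Dock2, Dock8, Cyth4 and Rac2), against 8.28% of all genes. Tmsb4x, the actin-sequestering thymosin beta 4, had a median of 29 counts per AGM macrophage-type well (0 to 101), against 2 (0 to 41). Its yolk sac median was 15 (0 to 72), against 2 (0 to 20), and the log2 ratios were 2.61 (2.48 to 2.73) and 2.34 (2.20 to 2.49). Of 7 measured genes of Fc receptor, integrin and immunoreceptor signalling, 6 were higher in both tissues (Fcgr3, Ptprc, Ptpn6, Inpp5d, Laptm5 and Sirpa), against the same 8.28%. Fyb, an adaptor that links receptors to integrins, had log2 ratios of 2.21 and 2.77, and Lst1, a membrane protein of leukocytes, had 3.67 and 3.40. Arhgdib, a GDP dissociation inhibitor of blood cells, had 89 counts in the AGM macrophage-type wells, 27 of them in 1 well, and 37 counts without the neutrophil-gene wells, where its log2 ratio was 2.08, against 2.98 with them. Mctp1, a membrane protein with calcium-binding C2 domains, had log2 ratios of 2.40 and 2.19 and was not among the named genes without those wells, and the other 23 of 24 remained.

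Among transcription factors, 3 of 6 measured macrophage regulators were higher in both tissues, namely Spi1, Maf and Runx1, against 8.28% of all genes. Spi1 had 29 against 6 counts in AGM, a log2 ratio of 4.36 (3.07 to 5.92), of which 15 were left without the neutrophil-gene wells. Its yolk sac counts were 9 against 15, with a log2 ratio of 2.30 (0.93 to 3.59). Runx1, which drives the birth of blood stem cells from endothelium and is also kept on in macrophages, had 0 to 6 counts in 23 of 37 AGM macrophage-type wells, against 0 to 12 counts in 30 of 250 other wells. Yolk sac wells had 0 to 5 counts in 10 of 29, against 0 to 2 in 26 of 328. The log2 ratios were 2.11 (1.57 to 2.65) and 2.59 (1.79 to 3.38). Kit, a receptor of blood progenitors, had 5 against 27 counts in AGM and 3 against 21 in the yolk sac. Its log2 ratios were -0.34 (-2.08 to 1.05) and 0.23 (-2.16 to 1.97). The 3 counts in yolk sac macrophage-type wells all lay in 1 well. That well met the rule with 1 count each of Csf1r, C1qb and Tyrobp and held 5 endothelial markers. Hdac9, a histone deacetylase, had log2 ratios of 2.25 and 1.97. The motor Myo5a had 1.99 and 2.15, and the proteasome activator subunit Psme1 had 1.98 and 1.94.

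**Figure D2:**
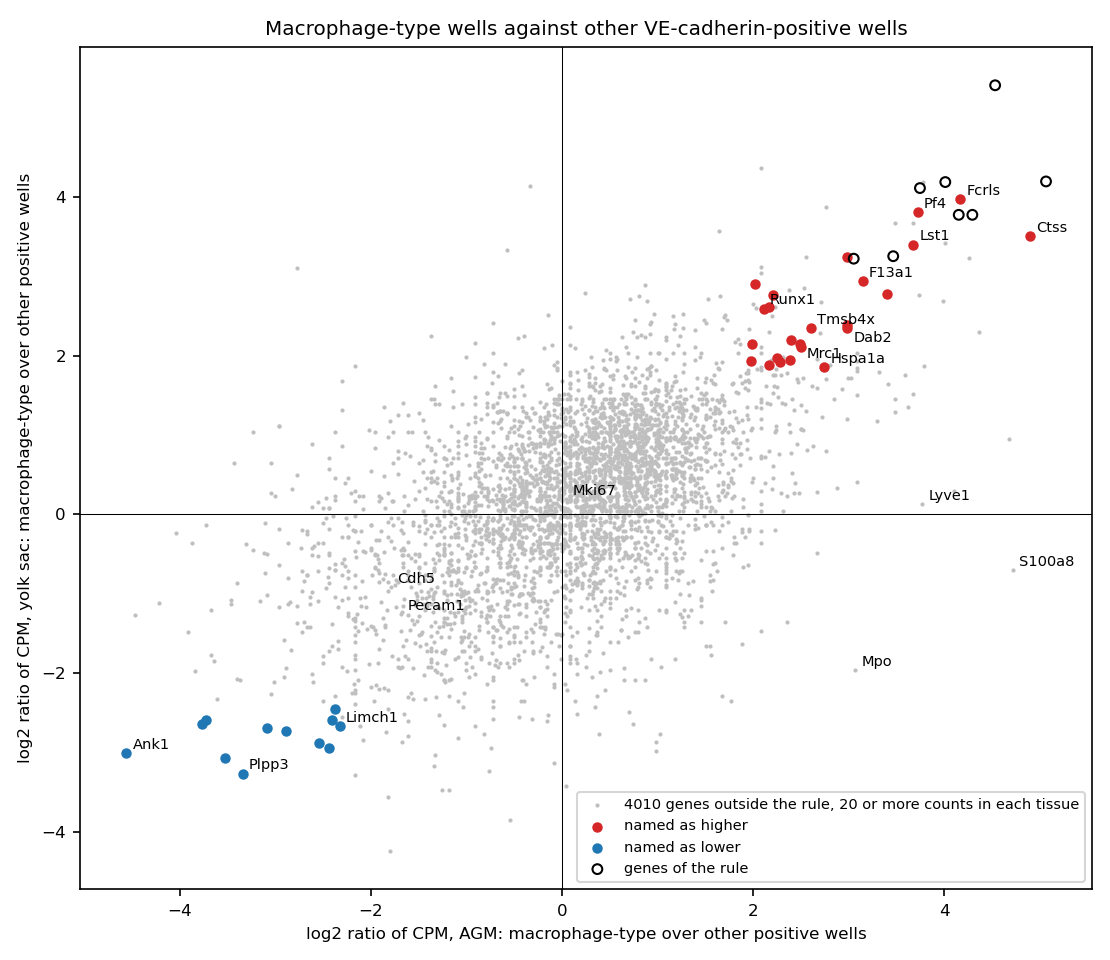
Log2 ratio of CPM in macrophage-type over other positive wells, for AGM on the x axis and the yolk sac on the y axis, 1 point per gene with at least 20 counts in each tissue. Fcrls, Pf4 and Ctss lie at the upper right beside the genes of the rule (open circles), Lyve1 and S100a8 lie far right near the horizontal line, high for AGM and near 0 or lower for the yolk sac, and Ank1 and Plpp3 lie at the lower left. The median gene lies at 0.20 and 0.23.

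Further lists gave smaller counts, to be read against the 8.28% of all genes that were higher in both tissues. At least 2-fold higher in both tissues were 3 of 5 receptors of tissue macrophages (Mrc1, Stab1 and Mertk), 3 of 5 complement and coagulation genes (among them C3ar1 and F13a1, with Cd59a lower), 2 of 3 chemokines and cytokines (Pf4 and Gas6) and 2 of 6 lipid-handling genes (Apoe and Lpl). So were 2 of 3 genes of antigen presentation (B2m and Cd86), 3 of 10 glycolytic genes (Hk2, Gpi1 and Pgk1) and 1 of 6 genes of haem and iron recycling (Hmox1). Without the neutrophil-gene wells 1 of 5 haem and iron genes passed that fold in both tissues, Slc40a1 in place of Hmox1. The 1 interferon response gene and the 1 pattern recognition gene measured did not pass that fold. Immediate early and stress genes were a larger group, with 6 of 9 higher (Jun, Atf3, Hspa1a, Hspa1b, Hsp90aa1 and Hspa8). Hspa1a, an inducible heat shock protein, had 0 to 21 counts per AGM macrophage-type well, against 0 to 27, and 0 to 23 in the yolk sac, against 0 to 41. Its log2 ratios were 2.74 and 1.85. The ranges overlapped fully in both tissues. Hspa1a and Hspa1b are near-identical, so the counts of each are uncertain.

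Few cell-cycle genes passed the fold in both tissues. Mki67, a protein of dividing cells, was present after thinning in 16 of 37 AGM macrophage-type wells (43.2%) against 37.9% of other wells, and in 13 of 29 yolk sac ones (44.8%) against 43.4%. Its log2 ratios were 0.04 (-0.33 to 0.40) and 0.19 (-0.23 to 0.58), against medians of 0.20 and 0.23 over all genes. Of 17 measured cell-cycle genes, 1 was at least 2-fold higher in both tissues, Pcna, the DNA polymerase clamp, and none lower, a share near the background of all genes. Taken singly, AGM had 7 of 18 at least 2-fold higher, against 886 of 4413 genes, or 5 of 16 without the neutrophil-gene wells, against 911 of 4262. The yolk sac had 3 of 19, against 1088 of 5110. The list's median lay 0.60 above that of all genes in AGM and 0.22 above it in the yolk sac.

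Endothelial RNA was lower but not gone. Of 10 measured endothelial markers, 6 were at least 2-fold lower in both tissues (Pecam1, Kdr, Flt1, Tie1, Cd93 and Ramp2), against 6.23% of all genes. Cdh5, which encodes the VE-cadherin used for the sort, had 22 counts in 10 of 37 AGM macrophage-type wells, against 323 counts in 133 of 250 other wells, a log2 ratio of -1.79 (-2.48 to -1.16). Its yolk sac counts were 18 in 11 of 29 wells, against 279 in 148 of 328, with a log2 ratio of -0.92 (-1.69 to -0.23). After thinning, the share of wells with Cdh5 was 13.5% (4.54 to 28.8%) in AGM macrophage-type wells, against 41.2% (34.9 to 47.6%) in the others and 2.27% in negative wells. For the yolk sac it was 24.1% (10.3 to 43.5%), against 25.4% (20.8 to 30.5%) in the others and 2.11% in negative wells. At least 3 of the 12 endothelial markers were present after thinning in 3 of 37 AGM and 1 of 29 yolk sac macrophage-type wells, against 32.1% and 23.5% of the other positive wells. The unthinned numbers were 8 of 37 and 5 of 29, and 1 well of each tissue held 8 of the 12. That AGM well had 32 endothelial counts and no count of Mrc1, F13a1, Pf4, Ctss or Fcrls. The yolk sac one had 17 endothelial counts, 16 of Stab2 and 3 of Mrc1. The label is in doubt for these wells.

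**Figure D3:**
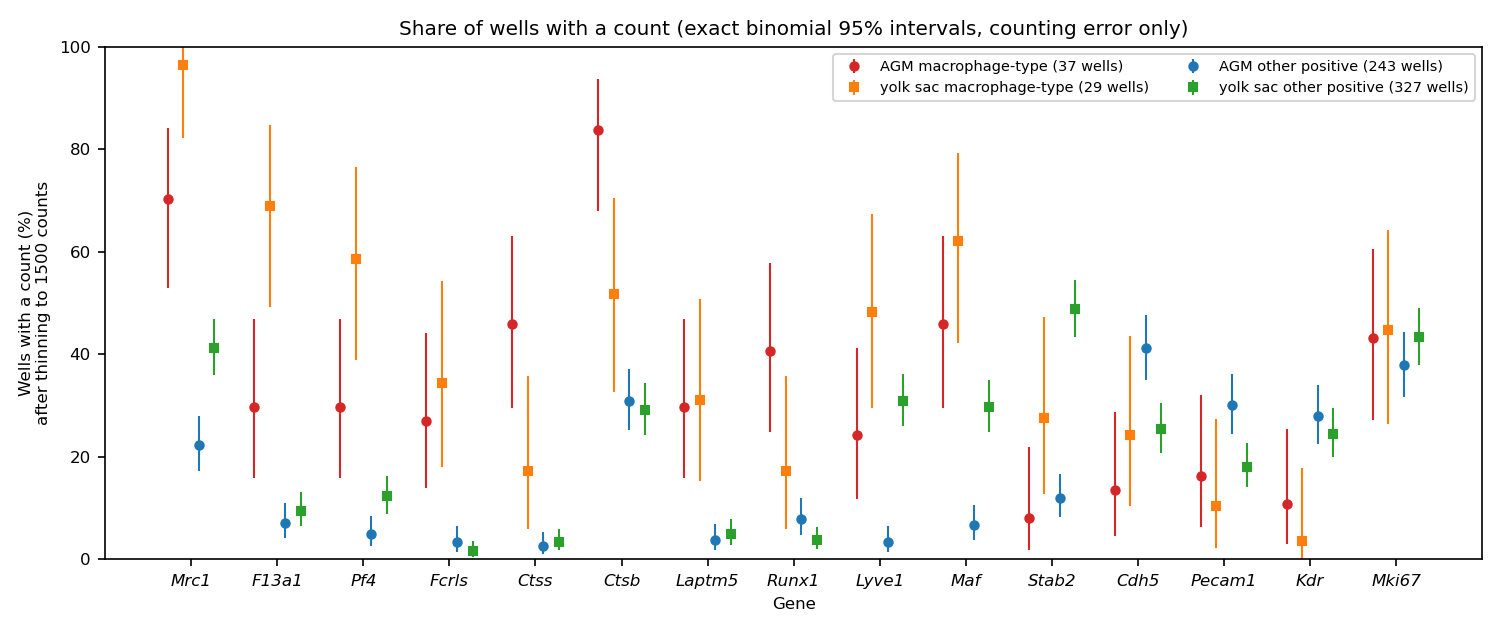
Share of wells with a count of each gene after a single random thinning to 1500 counts, with exact 95% intervals. Macrophage-type wells are red and orange, and other positive wells are blue and green. Mrc1 reaches 96.6% of yolk sac macrophage-type wells, Ctsb 83.8% of AGM ones, and Mki67 lies between 37.9% and 44.8% in all 4 groups.

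None of the 12 genes named as lower had more than 10 counts in the macrophage-type wells of a tissue. Ank1, the ankyrin of the red-cell skeleton, had 1 against 100 counts in AGM and 2 against 132 in the yolk sac, log2 ratios of -4.56 (-9.87 to -2.04) and -3.01 (-6.07 to -1.13). Plpp3, a lipid phosphatase of vessel walls, had 1 against 43 and 1 against 79 counts, log2 ratios of -3.34 (-8.67 to -0.78) and -3.27 (-8.59 to -0.75). Aplnr, the apelin receptor of endothelium, had 1 against 58 and 1 against 51 counts, and Cd93, an endothelial lectin-like receptor, 5 against 113 and 2 against 99. Limch1, a regulator of non-muscle myosin, had 10 against 213 and 2 against 104 counts. The red-cell genes Trim10 and Rhd had 1 to 2 counts in each tissue's macrophage-type wells, against 46 to 99 in the others. Tspan9, Stox2, Mcc, Adam12 and Dock9 had 1 to 3 counts, against 36 to 121. Without the neutrophil-gene wells, 8 of the 12 were again named. Of 8 measured erythroid markers 5 were lower in both tissues (among them Hba-a1, Hba-a2, Hbb-y and Hbb-bh1), against 6.23% of all genes, and 3 without the neutrophil-gene wells. Hbb-y was present in every one of the thinned wells of all groups. How far this RNA lay outside the cells was not tested.

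Markers of other cells were present too. Visceral endoderm markers summed to 47 counts, or 290 CPM, in AGM macrophage-type wells, against 414 CPM in other AGM wells. In yolk sac macrophage-type wells they summed to 573 counts, or 4300 CPM, against 8495 CPM in other yolk sac wells. Their part in the results was not tested. Of 5 measured mesenchymal markers 2 were lower in both tissues (Col1a1 and Col3a1), and of 3 visceral endoderm markers 1 was (Ttr), against 6.23% of all genes. The smooth muscle, neural and mast cell lists had 1, 2 and 1 measured members, and none was past the fold in both tissues. No lymphoid gene had enough counts. Of 6 measured progenitor genes, 2 were higher in both tissues, against 8.28% of all genes, Runx1 and Spi1, which the list of macrophage regulators also holds. In AGM 3 of the 6 were at least 2-fold lower, against 739 of 4413 genes, and in the yolk sac 0 were. The list's median lay 0.99 below that of all genes in AGM and 0.15 above it in the yolk sac.

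Between the tissues, AGM macrophage-type wells held more of several macrophage genes, lysosomal ones among them, and yolk sac ones more Pf4, Mrc1 and RNA of visceral endoderm. The wells met the rule unequally. The median was 5 of the 9 rule genes in AGM, or 6.5 without the neutrophil-gene wells, against 4 in the yolk sac. How far this bears on the contrast between the tissues was not tested. Of 1645 genes with enough counts, 212 were at least 2-fold higher in AGM than in yolk sac macrophage-type wells (12.9%) and 103 were lower (6.26%). Without the neutrophil-gene wells these were 209 of 1435 higher (14.6%) and 76 lower (5.3%), and the median gene stood 0.21 higher in AGM, against 0.15 with them. AGM and yolk sac wells were 1 pool each, so that tissue and pool cannot be told apart. With totals that also leave out the ribosomal RNA-like feature ENSMUSG00000098178 the split was 126 higher and 172 lower.

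Of the 10 genes named as higher in AGM, the neutrophil-gene wells held most counts of S100a8, Ltf, Gsr, Wfdc21, Hp, Cd52 and Prdx5. With all 37 wells the 10 named genes were S100a8, Ltf, Gsr, Wfdc21, Hp, Klf2, Cd52, Selenos, Dnajb1 and Prdx5. S100a8 had 1512 counts in AGM against 3 in yolk sac macrophage-type wells, a log2 ratio of 8.70 (7.15 to 10.98), and 18 counts without the 5 wells, a log2 ratio of 2.67. Ltf, the lactoferrin of granules, had 143 counts against 0, which makes it at least 39.2-fold higher against a floor of 3 counts over the yolk sac wells, and 1 count without the 5 wells. Wfdc21, Hp and Gsr had 63, 36 and 24 counts with and 0, 1 and 2 without. Cd52 and Prdx5 had 50 and 42 counts with and 21 and 17 without. Klf2, Selenos, Dnajb1, Cd52 and Prdx5 stayed over 2-fold without the 5 wells, with log2 ratios of 3.26, 2.67, 2.97, 2.16 and 1.85. In the other positive wells their log2 ratios were -0.03, -0.48, 0.67, 2.48 (1.12 to 4.07) and 0.58. Cd52 was thus higher for AGM there too. So was S100a8, at 3.28 (2.79 to 3.80), with 162 of its 244 AGM counts in 1 well. Of the 10, Dnajb1 and Cd52 were also named without the 5 wells, and the others named then were Tra2a, Mef2a, Auts2, Abcf1, Rnase4, Hsph1, Btaf1 and Atf3. Dnajb1, a heat shock co-chaperone, then had 37 counts in 11 of 32 AGM wells, against 5 counts in 3 of 29 yolk sac wells, a log2 ratio of 2.97 (1.62 to 4.68). Hsph1, another heat shock protein, had 68 against 16 counts, a log2 ratio of 2.17 (1.37 to 3.06). Klf2, a transcription factor of endothelium and quiescent blood cells, had 18 against 2 counts (interval 1.19 to 6.41). Cd52, a small surface protein of leukocytes, had 21 against 5 (interval 0.71 to 3.92). Mef2a and Auts2 had log2 ratios of 2.48 and 2.41, against 1.40 (0.84 to 1.97) and 1.97 (1.65 to 2.30) in the other positive wells. Tra2a, Abcf1, Rnase4, Hsph1, Btaf1 and Atf3 lay between -0.33 and 0.47 in those wells.

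Without the neutrophil-gene wells, 4 of 7 measured macrophage markers outside the rule (Adgre1, Cd68, Ctss and Laptm5) and 8 of 14 lysosomal genes were at least 2-fold higher in AGM, against 14.6% of genes. The median log2 ratios of the lists were 1.00 and 1.17, against 0.21 over all genes, and Cd68 and Ctss stand on both. None of 5 receptors of tissue macrophages passed that fold. Of the 4 markers, Adgre1 and Cd68 had log2 ratios of 1.00 (-0.24 to 2.35) and 1.67 (0.28 to 3.29). They were as high or higher for AGM in the other positive wells, at 1.99 (0.54 to 3.64) and 1.67 (-0.56 to 4.30). Laptm5 was at 0.41 (-0.42 to 1.22) in the other positive wells. Ctsb, the protease cathepsin B, had 0 to 26 counts with a median of 9 in AGM wells, against 0 to 16 with a median of 2 in yolk sac wells, a log2 ratio of 1.65 (1.31 to 1.99). In the other positive wells of the same tissues its log2 ratio was 0.05 (-0.25 to 0.34). Ctss had a log2 ratio of 1.93 (1.28 to 2.64), against 0.20 (-0.95 to 1.31) in other wells. The 8 lysosomal genes included Ctsb, Ctsc, Ctss, Ctsz, Cd68 and Lgmn, none of the list was lower, and with the 5 wells 6 of 14 were higher. Apoe, an apolipoprotein of lipid-laden macrophages, had a log2 ratio of 1.74 (1.42 to 2.06), against -0.81 (-1.11 to -0.52) in other wells. Of 7 stress genes, 4 were higher in AGM (Fos, Jun, Atf3 and Hspa1b), against 14.6% of genes. Jun and Hspa1b had log2 ratios of 1.49 and 1.17. They were also higher for AGM in the other positive wells, at 1.20 (0.73 to 1.66) and 0.82 (0.02 to 1.63). Atf3 had 2.09 (0.63 to 3.86), against -0.24 (-1.68 to 1.09) in other wells. Fos had 1.28 (-0.08 to 2.80), an interval that holds 0, against 0.02 (-0.85 to 0.85). Fcrls had a log2 ratio of 1.34 (0.62 to 2.11), Runx1 of 1.17 (0.46 to 1.92), Laptm5 of 1.17 (0.46 to 1.92) and Tmsb4x of 0.98 (0.84 to 1.13).

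Pf4 went the other way, with 87 counts in AGM against 183 in yolk sac macrophage-type wells, a log2 ratio of -0.99 (-1.37 to -0.61) without the neutrophil-gene wells and -1.35 with them. In other positive wells it was -1.27 (-1.92 to -0.65). Mrc1 had a log2 ratio of -0.58 (-0.88 to -0.28) without and -0.94 with the 5 wells, against -1.28 (-1.59 to -0.98) in other wells. Dab2 had -0.52 (-0.80 to -0.24), against -1.49 (-1.82 to -1.17). F13a1 had -0.19 (-0.67 to 0.28), an interval that holds 0. Its share of wells, also without the 5, was 34.4% in AGM and 69.0% in the yolk sac after thinning to 1500 counts, and 37.5% and 41.4% after thinning to 1000.

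Lyve1, a hyaluronan receptor of lymphatic and yolk sac endothelium and of some tissue macrophages, behaved differently in the macrophage-type wells and the rest, a contrast that was not tested. It had 61 counts in 11 of 37 AGM macrophage-type wells, at most 21 in 1 well, and 47 counts in 20 of 29 yolk sac ones, at most 8. The AGM over yolk sac log2 ratio was 0.10 (-0.48 to 0.68), or 0.46 (-0.11 to 1.04) without the neutrophil-gene wells, none of which had Lyve1. In the other positive wells it had 19 counts in AGM against 352 in the yolk sac, and their log2 ratio was -3.54 (-4.29 to -2.88). Macrophage-type over other wells, the log2 ratio was 3.77 (3.01 to 4.60) in AGM and 0.13 (-0.34 to 0.57) in the yolk sac, where the median gene lay at 0.23. Lyve1 lies at chr7:110850607-110863239 on the minus strand (GRCm38, GENCODE). Of the 11 AGM wells with Lyve1, 10 also had Mrc1, 9 had F13a1 and 1 had Stab2, a scavenger receptor of yolk sac and liver endothelium. Of the 20 yolk sac wells with Lyve1, 19 had Mrc1, 15 had F13a1 and 13 had Stab2. Maf, a transcription factor of macrophages and other cells, had 86 counts in AGM against 95 in yolk sac macrophage-type wells, a log2 ratio of -0.42 (-0.86 to 0.01). In the other positive wells its log2 ratio was -1.78 (-2.26 to -1.33). Unlike Lyve1 it stood above the other wells in both tissues, with log2 ratios of 2.93 (2.40 to 3.47) in AGM and 1.57 (1.22 to 1.92) in the yolk sac.

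The 10 genes named as higher in the yolk sac were Apoa2, Ttr, Sil1, Apoa1, Apob, Spp2, Afp, S100g, Stab2 and Filip1l, and the same 10 were named without the neutrophil-gene wells. Apoa1, Apoa2, Apob, Afp and Ttr are products of visceral endoderm, the lipid-exporting epithelium of the yolk sac. Afp, alpha-fetoprotein, had 0 to 4 counts per AGM macrophage-type well, against 4 to 17 in every yolk sac one, a log2 ratio of -3.31 (-3.87 to -2.80) with groups that met at 4. The same difference stood in the other positive wells, where the log2 ratio was -4.17 (-4.40 to -3.95), and thinned negative wells of the yolk sac held Afp in 77.0%. Within the yolk sac, the summed log2 ratios of macrophage-type over other wells were -1.09 for Afp and -1.14 for Ttr, but the medians per well were equal, 9 and 9 counts of Afp and 2 and 2 of Ttr. Single other wells held up to 597 counts of Afp and 378 of Ttr, against 17 and 8 in macrophage-type wells. All 6 measured visceral endoderm markers were lower in AGM than in the yolk sac. Sil1, a co-chaperone of the endoplasmic reticulum, had 1 count in AGM, against 24 counts in only 4 of 29 yolk sac wells, and in the other positive wells its log2 ratio was 1.00 (0.16 to 1.86). Filip1l, a cytoskeletal regulator, had 6 counts in 6 of 37 AGM wells, against 24 in 17 of 29 yolk sac wells.

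**Figure D4:**
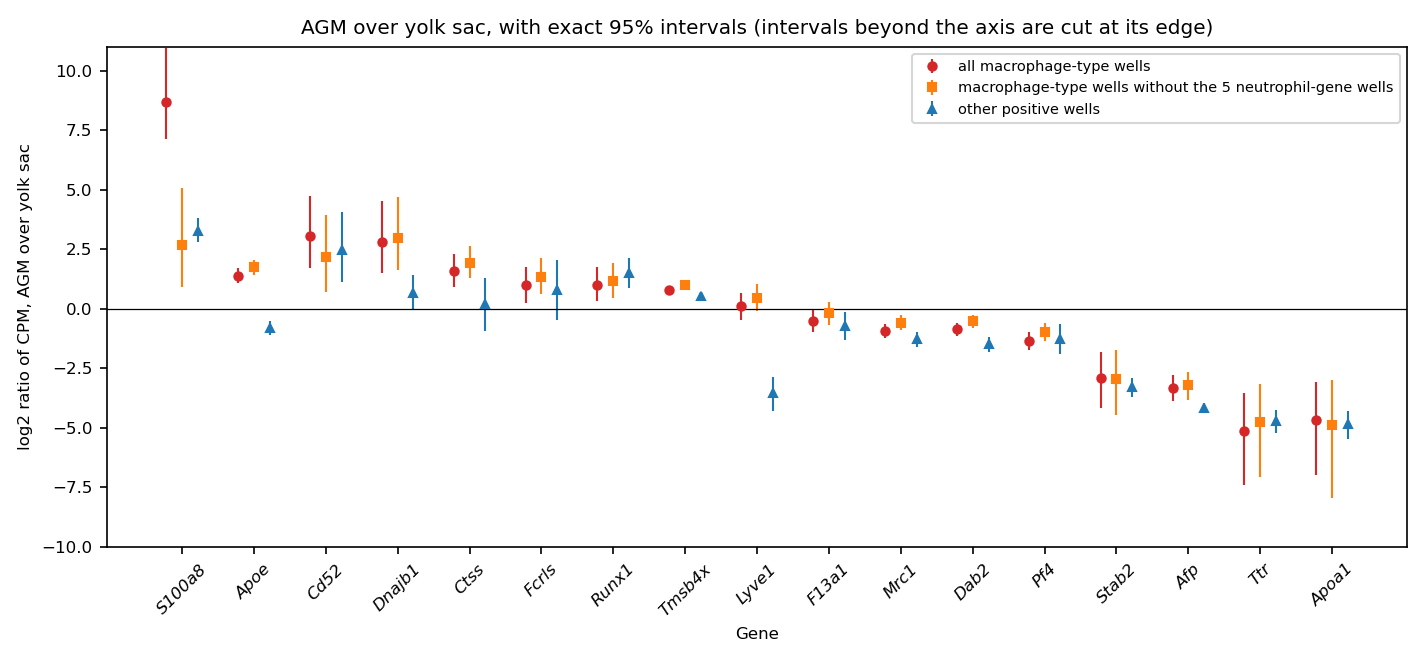
Log2 ratio of CPM, AGM over yolk sac, with exact 95% intervals, in all macrophage-type wells (red), in those without the 5 neutrophil-gene wells (orange) and in the other positive wells (blue). S100a8 is at 8.70 with and 2.67 without the 5 wells, Apoe is at 1.39 and 1.74 in macrophage-type wells and -0.81 in the others, and Lyve1 is near 0 in macrophage-type wells and -3.54 in the others.

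The macrophage-type wells took a large part of some genes of the whole positive pools. In AGM they were 12.9% of wells and 19.0% of counts, yet held 61 of 121 Runx1 counts, 50.4% (41.2 to 59.6%). The neutrophil-gene wells are included in all AGM shares here, and without them 53 of these Runx1 counts were left. The AGM macrophage-type wells also held 57.0% of Mrc1, 76.3% of Lyve1, 75.7% of Pf4, 87.5% of Ctss and 50.0% of Ptprc counts. Yolk sac macrophage-type wells were 8.12% of wells and 10.9% of counts and held 25 of 59 Runx1 counts, 42.4% (29.6 to 55.9%). They held 63.1% of Pf4, 51.3% of Ptprc and 35.1% of Mrc1 counts there, but 11.8% of Lyve1 and 5.20% of Stab2. Of Cdh5 counts they held 6.38% in AGM and 6.06% in the yolk sac. Between whole positive pools, the AGM over yolk sac log2 ratio of Runx1 was 1.57, and 1.49 (0.86 to 2.14) without the macrophage-type wells. That of Lyve1 was -1.79 with them and -3.54 without, and that of Mrc1 -0.83 with and -1.28 without.

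**Figure D5:**
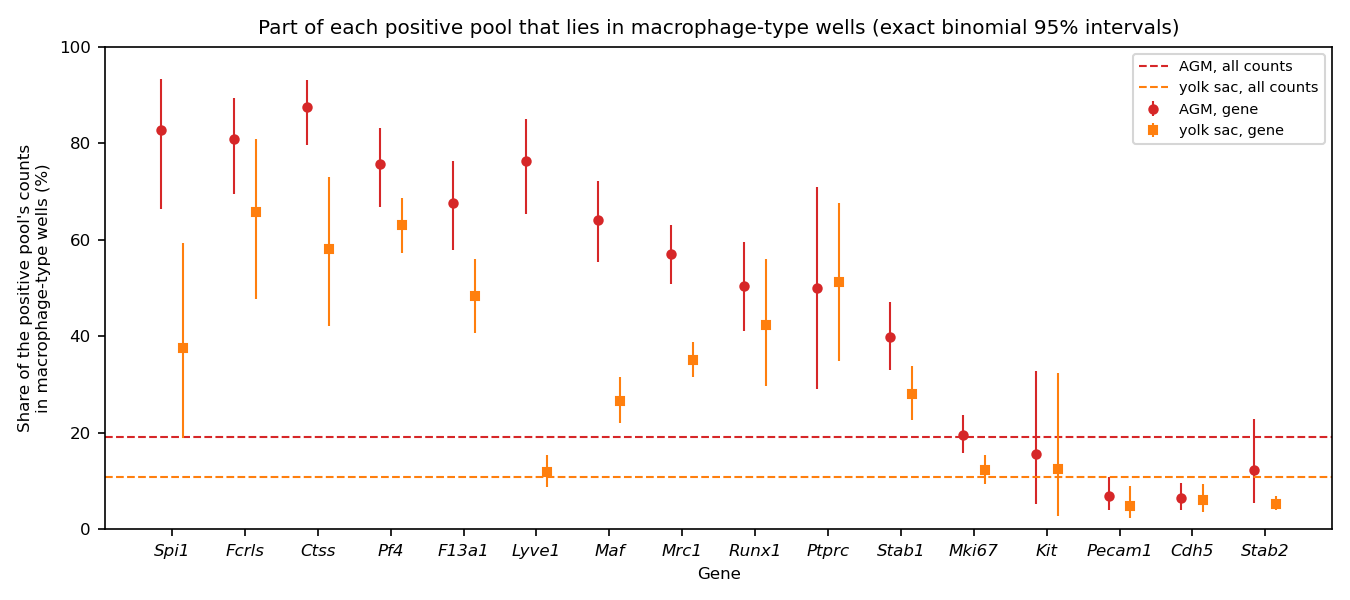
Share of each positive pool's counts of a gene that lay in macrophage-type wells, with exact 95% intervals, for AGM (red) and the yolk sac (orange). Dashed lines mark their share of all counts, 19.0% and 10.9%. Ctss reaches 87.5% and Runx1 50.4% in AGM, and Cdh5 and Pecam1 lie under the lines.

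As a description of what the rule used, the number of rule genes per well ran from 3 to 9 in AGM, with 16 of 37 wells at 7 or more, and from 3 to 8 in the yolk sac, with 3 of 29 at 7 or more. After thinning to 1500 counts the median was 3 of 9 genes in AGM and 2 in the yolk sac. Lyz2, lysozyme of macrophages and neutrophils, was seen in 17 of the 32 AGM wells without neutrophil genes and in 2 of 29 yolk sac wells. The rule used Lyz2, and Lyz1 is a close copy of it.

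Strand use in counting is not given in the sources used here, so genes whose exons overlap others in GENCODE are uncertain. Among the named genes these are F13a1 (Gm30489), Arhgdib (Pde6h), Dab2 (Gm18888), Fyb (Gm7666 and Gm2245), Runx1 (Gm26626), Ctsa (Neurl2 and Pltp), Psme1 (Emc9), Grn (Fam171a2), Hspa1a (Gm20481), Ank1 (Gm15816), Mcc (A930012L18Rik), Cd52 (Crybg2), Prdx5 (Trmt112), Sil1, Stab2 (Gm16268), Mef2a (Lysmd4), Mpo (Gm11505) and Rnase4 (Ang). The alpha globin copies Hba-a1 and Hba-a2 can share reads in the same way as Hspa1a and Hspa1b.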

How the data were processed

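The deposited table of the E11.5 chip gives whole-number counts for every gene in every well, as the authors made them. FastQC, cutadapt, STAR and mm10 (GRCm38) stand in the submitters' processing notes. The counting tool, strand setting and any molecular identifiers are not given in the sources used here, so counts may include copies of 1 molecule. Tissue and gate came from the deposited well annotation.

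Wells with at least 500 genes were summed by tissue into macrophage-type and other positive wells. Log2 ratios of CPM carry exact conditional binomial 95% intervals, with 0 counts taken as 3 for a fold. Shares carry Clopper-Pearson intervals and were compared in wells thinned at random to 1500 counts, which left out 7 AGM and 1 yolk sac other wells. No gene was tested and no p-value is given, since each pool is 1 sample.

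Members and gene lists were chosen with earlier results of these data known. Named genes followed 1 rule. Higher genes needed at least 20 counts in the macrophage-type wells of each tissue, a count in at least 10% of them and at most 50% of counts from 1 well, and the 24 with the largest smaller ratio of the 2 tissues were taken. The 12 lower genes needed 20 counts in the other wells of each tissue. Between the tissues 10 genes in each direction were taken. Rule, mitochondrial, ribosomal protein, haemoglobin and unnamed genes were left out, and genes such as Cdh5, Runx1, Kit and Lyve1 were named whatever their values. The neutrophil-gene wells were defined, and leaving them out was chosen, after seeing the data.

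Some genes of the lists are not reported here by name. Exon overlaps came from GENCODE. Doublets were called with Scrublet in scanpy 1.11.5 and kept. Software was Python 3.11.15, numpy 2.4.6, scipy 1.17.1 and edgeR 4.0.16 for TMM factors. The ratios and intervals were tested on simulated data.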

Additional observations from a re-analysis of the deposited data

How the results depend on the processing

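No paired analysis was possible because each sorted pool is 1 sample on 1 chip and no replicate numbers link the pools. Depth limits the genes named as lower, which rest on 1 to 10 counts in the macrophage-type wells of a tissue, and PCR copies cannot be told from molecules. No log2 ratio of the genes named by size changed sign under the alternatives run, leaving out ratios with 3 or fewer counts on both sides (Ltf, Gsr, Wfdc21 and Hp without the neutrophil-gene wells). Between macrophage-type and other wells 400 of these ratios in AGM and 399 in the yolk sac stayed within the reported interval and 32 and 33 did not, and for AGM over yolk sac the numbers were 205 and 11.

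With at least 2 of the 9 genes 58 AGM and 59 yolk sac wells qualified. With at least 4 the yolk sac had 18, and 64 genes were lower in AGM than in yolk sac macrophage-type wells. The rule applied to thinned wells left 14 in the yolk sac. Genes higher in both tissues numbered 93 in wells with 1000 or more genes. Without haemoglobin and mitochondrial totals they were 148 with 450 lower, with TMM factors 108 with 569 lower, and also without ENSMUSG00000098178 145 with 478 lower. A minimum of 50 counts gave 122 with 138 lower, and no minimum gave 4328 higher, since single counts then pass the fold. Between AGM and yolk sac macrophage-type wells, 45 were higher and 15 lower at a minimum of 50, and 2615 and 2845 with no minimum. The numbers were 126 and 172 without ENSMUSG00000098178. Leaving out wells with 3 or more endothelial markers gave 137 higher.

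A minimum of 50 counts, which leaves fewer genes measured, gave 2 higher other macrophage markers, 2 of Fc and integrin signalling, 4 of actin and migration and 1 each of the megakaryocyte, progenitor, lipid, chemokine, antigen presentation, complement and glycolysis lists. It gave 0 for the haem list and 0 lower visceral endoderm markers. Totals without haemoglobin and mitochondrial genes gave 5 higher lysosomal genes, 1 higher each of the lipid, antigen presentation and glycolysis lists, and 8 erythroid, 2 visceral endoderm, 2 glycolysis and 1 each of the smooth muscle, neural, progenitor and actin genes lower. Without the neutrophil-gene wells 3 erythroid, 1 mesenchymal and 2 visceral endoderm markers were lower and 2 cell-cycle genes higher.

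Mrc1 was present in 48.6% of AGM and 72.4% of yolk sac macrophage-type wells thinned to 1000 counts, against 16.9% and 31.1% of the others, which held it in 32% and 60.1% unthinned. F13a1 was present in 41.4% of yolk sac macrophage-type wells thinned to 1000 counts, in 48.6% of AGM ones unthinned, and in 12% and 18.3% of other AGM and yolk sac wells unthinned. Unthinned, Cdh5 was present in 53.2% and 45.1% and Pecam1 in 45.6% and 29.0% of other AGM and yolk sac wells. Thinned to 1000 counts, Cdh5 was present in 31.7% of other AGM wells and Pecam1 in 13.4% of other yolk sac wells.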
